A study of Mus musculus with 2 samples.

Results

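The genes that encode the bulk histones of dividing cells were described in DNase-seq data of the mouse cerebral cortex, a tissue made up mostly of cells that no longer divide. Members were the protein-coding genes of the GENCODE M21 annotation (mm10 build) whose names begin with Hist1h, Hist2h, Hist3h or Hist4h, and no measured value entered this choice. By this rule 67 of 21938 protein-coding genes were members, of which 6 encode the linker histone H1, 18 H2A, 18 H2B, 12 H3 and 13 H4. The mice were adult B6CASTF1/J females of 18 to 20 months, first-generation hybrids of C57BL/6J with the CAST strain, and the tissue was the left cerebral cortex. There was 1 group, with no treatment and no genotype to compare, and it held 2 libraries, called library 1 and library 2 by their biological replicate numbers. Both carry the same donor identifier and come from separate tissue samples, and the labels do not say that these were separate animals, so that differences between the libraries may be technical.

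Nucleosomes wrap DNA around a core of H2A, H2B, H3 and H4, and H1 binds the linker between them. Most of this protein is made in S phase from clustered, intronless genes, which are transcribed at the histone locus body around the coactivator NPAT and whose messages end in a conserved stem-loop in place of a poly(A) tail. Cells that have left the cycle instead rely on variant histones, such as H3.3 and H2A.Z, which are encoded elsewhere and made at any time, although some clustered genes are also known to give polyadenylated messages in differentiated cells.

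DNase I cuts DNA that is not covered by nucleosomes, so a peak of cuts marks an accessible region. The promoter window of a gene was 500 bases on either side of each of its annotated starts. The promoter signal was the signal the authors deposited for the strongest peak that reached into this window, and 0 where there was none. Its normalization is not stated and read depth is unknown, so no counting interval can be given. Accessibility is not transcription, and in bulk tissue a site open in few cells cannot be told apart from a site that is weakly open in many. The longer peak lists held 132054 and 139799 peaks. All 6 markers of excitatory cortical neurons were open, with a promoter peak in each library (median signal 1.61 and 1.74), as did the 4 markers of oligodendrocyte precursors, which still divide in the adult brain. None of the 4 markers of microglia and none of the 6 testis germ cell markers had a promoter peak in both libraries, and of 4 erythroid markers only Epor did.

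Most clustered histone promoters were accessible. A promoter peak was found in both libraries at 58 of the 67 members (86.6%), against 63.6% of all protein-coding genes (64.5% in library 1 and 66.5% in library 2). The other 9 members had no peak in either library, against 32.6% of all genes, and no member had a peak in 1 library only, against 0.903% of all genes for library 1 and 2.84% for library 2. The same 58 members had a footprint, a short stretch protected from cutting within accessible DNA, in both libraries (all genes, 61.5%, with 62.4% and 64.7% in the single libraries). They also held bases listed in both libraries under a false discovery rate of 0.05 (all genes, 64.4%, with 65.4% and 67.2% in the single libraries). With 1 start per gene, 58 members still had a peak in both libraries, against 58.7% of all genes. Members are not independent of each other, since 26 of them lie in 13 windows shared by a pair. When overlapping windows were counted once, 48 of 54 had a peak in both libraries.

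The level of these promoters was moderate. The median promoter signal of the members was 2.55 in library 1 and 2.42 in library 2, against 1.31 and 1.55 over all genes, a comparison that includes many genes at 0. Among genes with a peak, the members' medians were 2.79 and 2.44, below those of all genes at 3.13 and 3.47. The mean signal of both libraries exceeded 1 at 54 members (80.6%, against 54.8% of all genes), exceeded 2 at 39 members (58.2%, against 44.1%) and exceeded 5 at 8 members (11.9%, against 17.8% of all genes). Members were thus more often open than all genes and less often among the strongest, as counts with no test. Of the 10 strongest members 7 encode H4.

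**Figure D1:**
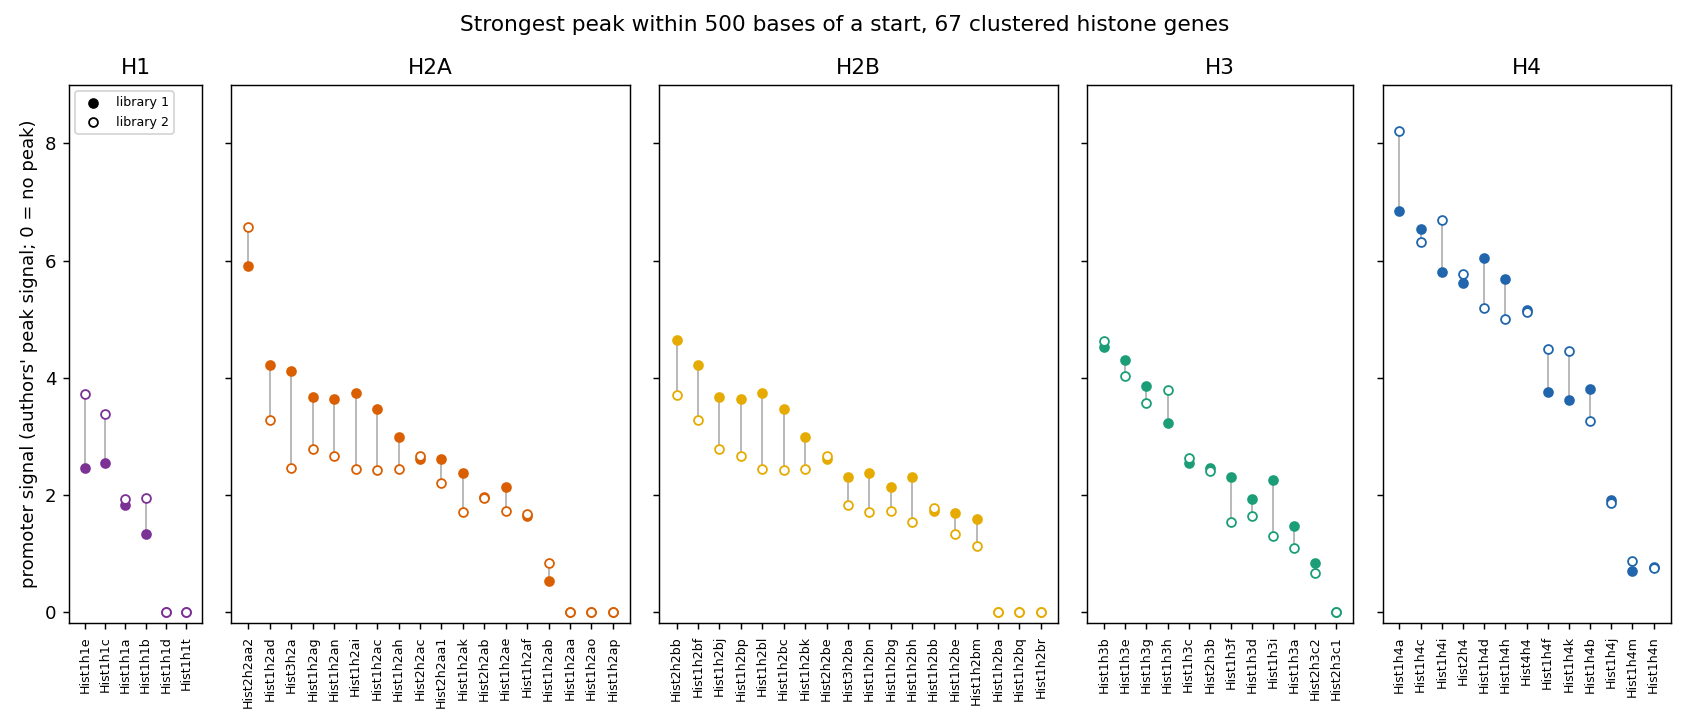
Promoter signal of each of the 67 members by histone class, with library 1 filled and library 2 open, joined by a line; 0 on the vertical axis means no peak. The H4 genes reach highest, with Hist1h4a at 6.85 and 8.21, and the 9 members at 0 lie at 0 in both libraries.

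Both libraries showed promoter peaks at all 13 H4 genes, with a class median of 5.16 and 5.001. H4 is the partner of H3 in the core tetramer. After translation of the annotated coding sequences, these 13 genes held 12 distinct coding sequences and encoded 1 and the same protein of 103 residues. Their mean promoter signals nevertheless ran from 0.758 to 7.53. Hist1h4a, at chr13:23760692-23761230, was the strongest member of any class, with 6.85 in library 1 and 8.21 in library 2 (mean 7.53 ± 0.967 SD, n = 2). Hist1h4c followed with 6.53 and 6.31, and Hist1h4i with 5.80 and 6.70. Hist1h4a lay above both in each library, while the values of Hist1h4c and Hist1h4i overlapped. Hist2h4 on chromosome 3 gave 5.62 and 5.77. Hist4h4, the only protein-coding gene of its cluster, at chr6:136801553-136804415, gave 5.16 and 5.12. At the low end, Hist1h4m gave 0.687 and 0.869 and Hist1h4n gave 0.769 and 0.746, far below the next H4 gene, Hist1h4j, at 1.91 and 1.86. In the windows of Hist1h4m and Hist1h4n, 94.9% and 95.8% of bases lay in 31-base words found more than once in the genome. Whether reads were lost there was not tested, so their weak peaks are not read as closed chromatin.

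Transcription of H4 genes is driven in part by a proximal element that is bound by HINFP and has the core GGTCCG. An exact core on either strand lay within 250 bases upstream to 50 bases downstream of the principal start in 12 of 13 H4 genes (92.3%), against 10.4% of all protein-coding genes. The first base of the core lay between 80 and 11 bases upstream of the start, and all 12 cores were on the strand of the gene. They are given in order of mean promoter signal, 30 bases of the gene's strand each, with the core in capitals. Near-identical elements stand in front of genes whose measured signals differ widely. The lowest of these, Hist1h4m and Hist1h4n, have windows made up mostly of sequence found more than once in the genome.
Hist1h4c, chr13:23698487-23698516, minus strand: agttttcaaccaGGTCCGcagaaggcctat
Hist1h4i, chr13:22041391-22041420, minus strand: tgttttcactccGGTCCGcaagttccctat
Hist2h4, chr3:96263362-96263391, minus strand: agttttcaatctGGTCCGatcctctcatat
Hist1h4d, chr13:23581509-23581538, plus strand: ggttttcaaacaGGTCCGcattggtattat
Hist1h4h, chr13:23531027-23531056, plus strand: agtcttcaatcaGGTCCGaaaacactgcat
Hist4h4, chr6:136804446-136804475, minus strand: tgttttcaatcaGGTCCGctcccaggaaat
Hist1h4f, chr13:23551697-23551726, minus strand: agtcctctaaaaGGTCCGcattcgccatat
Hist1h4k, chr13:21750568-21750597, minus strand: ggttctcatttcGGTCCGcccgccgcagta
Hist1h4b, chr13:23756931-23756960, plus strand: agttctcaaccaGGTCCGataagagcctat
Hist1h4j, chr13:21735004-21735033, plus strand: ggttctcatttcGGTCCGcccgctacagta
Hist1h4m, chr13:21811687-21811716, plus strand: tgttttcactccGGTCCGcaagttccctat
Hist1h4n, chr13:21832226-21832255, minus strand: tgttttcactccGGTCCGcaagttccctat

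The middle base of each of these 12 cores was listed under 0.05 in both libraries. A footprint covered that base at 7 genes in library 1 and at 8 in library 2, with 6 genes in common. These 6 were Hist1h4c, Hist1h4i, Hist2h4, Hist1h4d, Hist4h4 and Hist1h4b. In the stretch searched for the core, footprints held 22.3% of the listed bases of H4 genes in library 1 and 24.3% in library 2. The counts of covered cores were not tested against these shares. Hist1h4i, Hist1h4m and Hist1h4n carry the same 30 letters, and their mean promoter signals were 6.25, 0.778 and 0.758. The share of window bases in words found more than once also differed, at 25.9%, 94.9% and 95.8%, and its part in these signals was not tested. Other letters of the H4 promoters were also frequent: the Sp1 motif GGGCGG stood in 10 of 13 (all genes, 45.3%), and the E2F motif TTCCCGC in 6 of 13 (all genes, 5.97%), where some matches of the pair overlap. The CCAAT box, common in the other core classes, was found in 4 of 13 H4 genes (30.8%, near the 38.1% of all genes).

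Hist1h4a, the strongest member, was the only H4 gene without an exact core. Its 250 upstream bases, chr13:23761231-23761480 on the minus strand, hold several matches of TTCCCGC and are given with the footprints of library 1 in capitals.
Hist1h4a: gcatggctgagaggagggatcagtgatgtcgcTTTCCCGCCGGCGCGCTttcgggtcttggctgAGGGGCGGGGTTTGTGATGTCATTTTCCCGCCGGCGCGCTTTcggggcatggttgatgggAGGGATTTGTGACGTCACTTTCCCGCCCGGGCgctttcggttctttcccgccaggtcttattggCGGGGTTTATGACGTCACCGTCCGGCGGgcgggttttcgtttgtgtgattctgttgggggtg
In library 1, 4 footprints covered 119 of these bases, and in library 2, 5 footprints covered 117. Of the bases in the promoter window, 99.6% and 100% were listed under 0.05.

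H3 genes were open at 11 of 12 members, with a class median of 2.38 and 2.02. They encode 2 proteins, 1 shared by 8 genes and the other by 4. Hist1h3b was the strongest, with 4.52 and 4.62, and Hist1h3e next with 4.31 and 4.03. In the Hist2 cluster, Hist2h3b gave 2.45 and 2.40, Hist2h3c2 gave 0.837 and 0.660, and Hist2h3c1 had no peak in either library. These 3 genes encode the same H3 protein. H3 promoters held a CCAAT box in 11 of 12 members, against 38.1% of all genes, and the TATA box TATAAA in 4 of 12, against 13.2%.

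H2A and H2B form the dimers of the nucleosome core, and their genes often face away from each other. In each class 15 of 18 members were open, with medians of 2.61 and 2.31 for H2A and 2.34 and 1.79 for H2B. The principal start of Hist1h2be, an H2B gene counted as open, lies 35168 bases before its start codon. Its promoter signal was 1.69 and 1.32, and a window of 500 bases on either side of the start codon held 2.53 and 1.45. Hist2h2aa2 stood out among H2A genes, with 5.90 and 6.57 (mean 6.24 ± 0.476 SD, n = 2), above the next, Hist1h2ad, at 4.21 and 3.27. Hist2h2aa1, which has the same coding sequence and lies on the opposite strand nearby, gave 2.61 and 2.20. The lowest open H2A gene was Hist1h2ab, with 0.531 and 0.826, whose peak was lost with the shorter peak lists. Among H2B genes Hist2h2bb was highest, with 4.63 and 3.71, followed by Hist1h2bf with 4.21 and 3.27. In the smaller clusters, Hist2h2ac and Hist2h2be shared a peak of 2.61 and 2.66, and Hist2h2ab gave 1.97 and 1.94. Hist3h2a, at chr11:58954685-58956830, gave 4.11 and 2.45, and Hist3h2ba gave 2.31 and 1.82. The peaks counted for Hist2h2ab and Hist3h2a also lay within 500 bases of starts of the genes Bola1 and Trim17, respectively.

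There were 12 divergent H2A and H2B pairs, with 175 to 305 bases between the starts. In every open pair both promoter signals came from the same peak and count as 1 observation. Around the principal starts, every H2A and H2B promoter held a CCAAT box (18 of 18 in each class, against 38.1% of all genes). For Hist1h2be this start lies 35168 bases before the start codon, and the bases next to the start codon were not searched. The octamer ATTTGCAT, the site of OCT1, stood in 7 H2A and 8 H2B promoters, in part the same letters read from both sides, and in 1.66% of all promoters. The 250 bases between Hist1h2ac and Hist1h2bc, chr13:23683949-23684198 on the plus strand, show this arrangement, first with TATA boxes, CCAAT boxes and the octamer of either strand in capitals, then with the footprints of each library in capitals.
Motifs: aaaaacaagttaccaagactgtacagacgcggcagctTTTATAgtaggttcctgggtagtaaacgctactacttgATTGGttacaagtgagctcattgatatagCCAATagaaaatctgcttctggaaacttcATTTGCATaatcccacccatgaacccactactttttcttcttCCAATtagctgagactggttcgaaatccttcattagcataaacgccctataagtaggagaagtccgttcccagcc
Library 1: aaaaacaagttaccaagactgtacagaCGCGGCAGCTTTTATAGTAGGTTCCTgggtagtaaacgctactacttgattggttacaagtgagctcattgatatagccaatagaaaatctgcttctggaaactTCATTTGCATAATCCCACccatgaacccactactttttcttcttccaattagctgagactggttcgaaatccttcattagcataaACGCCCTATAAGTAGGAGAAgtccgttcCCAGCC
Library 2: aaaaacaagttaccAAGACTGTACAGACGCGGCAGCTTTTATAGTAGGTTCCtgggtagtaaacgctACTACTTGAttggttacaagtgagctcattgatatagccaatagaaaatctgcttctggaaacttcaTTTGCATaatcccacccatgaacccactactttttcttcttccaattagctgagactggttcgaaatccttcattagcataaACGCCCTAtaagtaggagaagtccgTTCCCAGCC
The peak over this segment had a signal of 3.46 in library 1 and 2.42 in library 2. Footprints met the TATA box and the octamer in both libraries, and left the 3 CCAAT boxes uncovered in library 1. Over all members, a footprint covered the middle base of 39 of 152 CCAAT matches in library 1 and 33 in library 2, where a site read from both genes of a pair counts for each. Counted once, these were 30 and 25 of 111 sites. For the octamer it was 1 of 10 distinct sites in each library, the one shown here between Hist1h2ac and Hist1h2bc. Over all members, footprints held 20.0% and 20.6% of the listed bases within 250 bases upstream to 50 bases downstream of the starts.

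H1 genes were open at 4 of 6 members (66.7%, near the 63.6% of all genes), with a class median of 1.57 and 1.93. Hist1h1e gave 2.46 and 3.72, Hist1h1c 2.55 and 3.39, Hist1h1a 1.82 and 1.92, and Hist1h1b 1.32 and 1.94. Hist1h1d and Hist1h1t had no peak in either library. The annotated start of Hist1h1d lies 1828 bases before its start codon. A window of 500 bases on either side of the start codon, tried after the data were seen, held a peak of 2.27 in library 1 and 2.54 in library 2. With such windows 59 of 67 members had a peak in both libraries, against 42.4% of all genes. With 1 start per gene the share of all genes was 58.7%. Only 2 members, Hist1h1d and Hist1h2be, have over 1000 bases between start and start codon. This distance was not measured over all genes, so the 42.4% is not a like background for the members. Hist1h1t encodes the H1 of male germ cells, and its start codon window held no peak either. The H1 box AAACACA stood in 4 of 6 H1 promoters, against 6.35% of all promoters. For Hist1h1d, counted without this box, the annotated start was searched and the bases next to the start codon were not. The upstream 250 bases of the open Hist1h1c (chr13:23738558-23738807, plus strand) and the closed Hist1h1t (chr13:23695564-23695813, plus strand) are shown because both carry this box and a CCAAT box, with all searched motifs in capitals.
Hist1h1c: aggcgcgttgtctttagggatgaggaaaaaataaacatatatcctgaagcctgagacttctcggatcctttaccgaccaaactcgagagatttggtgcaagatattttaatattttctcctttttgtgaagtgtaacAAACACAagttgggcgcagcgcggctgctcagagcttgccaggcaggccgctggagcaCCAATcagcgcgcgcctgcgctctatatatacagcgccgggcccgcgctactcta
Hist1h1t: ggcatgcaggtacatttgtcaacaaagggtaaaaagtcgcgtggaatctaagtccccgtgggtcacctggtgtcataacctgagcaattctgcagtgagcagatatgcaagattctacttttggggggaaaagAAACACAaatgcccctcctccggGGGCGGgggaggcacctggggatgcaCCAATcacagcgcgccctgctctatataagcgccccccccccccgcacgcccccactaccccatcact

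Hist1h2aa and Hist1h2ba, a divergent pair that encodes testis histones, form the isolated last part of the Hist1 cluster at chr13:23933773-23934851. Neither had a peak, a footprint or a listed base in either library. With windows of 2000 bases, which reach neighbouring genes, they were the only members left without a peak in both libraries. Their windows are mostly single-copy, with 5.09% and 17.4% of bases in words found elsewhere. Over all members, a CCAAT box stood in 8 of 9 promoters without a peak and in 48 of 58 with a peak in both libraries. For the octamer these counts were 2 of 9 and 13 of 58, and for the TATA box 3 of 9 and 34 of 58. The 9 include Hist1h2ao, Hist1h2ap, Hist1h2bq, Hist1h2br and Hist2h3c1, which have over 90% of bases in words found elsewhere. Their missing peaks are not read as closed chromatin. The 9 also include Hist1h1d, searched at a start 1828 bases before its start codon. The counts are therefore not a comparison of open with closed promoters. The upstream 250 bases of Hist1h2aa (chr13:23934212-23934461, plus strand) held 4 CCAAT boxes, 1 octamer and 2 TATA boxes, letters also found in open H2A and H2B promoters. The bases are shown with these letters in capitals.
Hist1h2aa: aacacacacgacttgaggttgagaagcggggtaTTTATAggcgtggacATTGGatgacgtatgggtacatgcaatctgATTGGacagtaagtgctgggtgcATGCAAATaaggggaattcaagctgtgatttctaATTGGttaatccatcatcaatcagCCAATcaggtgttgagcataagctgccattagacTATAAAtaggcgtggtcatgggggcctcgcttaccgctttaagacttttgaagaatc
A motif match is a description of the letters, not a bound site.

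By cluster, Hist1 was open at 46 of 54 members, Hist2 at 9 of 10, Hist3 at 2 of 2 and Hist4 at 1 of 1. Hist1 lies on chromosome 13 in 4 parts separated by over 100 kb. In the first part, chr13:21715763-21837530, 14 of 18 members were open, in the second, chr13:22035164-22043676, 5 of 5, in the third, chr13:23531050-23764406, 27 of 29, and in the last 0 of 2. The third part held 50 and 51 peaks, or 21.4 and 21.9 per 100 kb, against 4.85 and 5.13 per 100 kb over the genome. By principal starts, the only other protein-coding gene within the cluster spans was the iron regulator Hfe in the third part, which had weak promoter peaks of 0.640 and 0.882. A further annotated start of Trim17 coincides with that of Hist3h2a.

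Histone genes are near copies of each other, and reads that fit several places may have been dropped or shared out in a way that the sources used here do not give. Copies were therefore measured as the share of window bases lying in 31-base words found more than once in the mm10 genome on either strand. Of 8 members with over 90% of bases in such words, 3 were open, and of the other 59 members 55 were open (93.2%). The first group comprises Hist1h2ao, Hist1h2ap, Hist1h2bq, Hist1h2br, Hist2h3c1, Hist2h3c2, Hist1h4m and Hist1h4n. The windows of Hist1h2ao, Hist1h2ap, Hist1h2bq and Hist1h2br had no single-copy base. Around the start codon, Hist1h2ao and Hist1h2ap were identical over 1001 bases, and so were Hist1h2bq and Hist1h2br. Hist2h3c1, without a peak, and Hist2h3c2, with a peak, were 98.4% identical. Their neighbours Hist2h2aa1 and Hist2h2aa2 were 86.1% identical over the same span. Over all members, 67.1% of single-copy bases and 34.4% of copied bases were listed under 0.05 in library 1, and 71.4% and 44.2% in library 2. The pooled H2A, H2B, H3 and H4 values went the same way. H1 genes went the other way, with 46.3% and 99.7% in library 1 and 51.4% and 99.7% in library 2. Both kinds of bases were not compared at equal distance from the start, so the part of position was not tested. Whether reads were lost at the 8 genes of the first group was not tested, so their missing or weak peaks are not read here as closed chromatin. The 4 members with few copies and no peak at the annotated start were Hist1h1d, Hist1h1t, Hist1h2aa and Hist1h2ba. Of these, Hist1h1d had a peak of 2.27 in library 1 and 2.54 in library 2 around its start codon. Hist2h2aa2, the strongest H2A gene, had 72.1% of bases in copies. Of its single-copy bases 71.3% and 75.6% were listed, against 39.2% of its copied bases in each library.

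**Figure D2:**
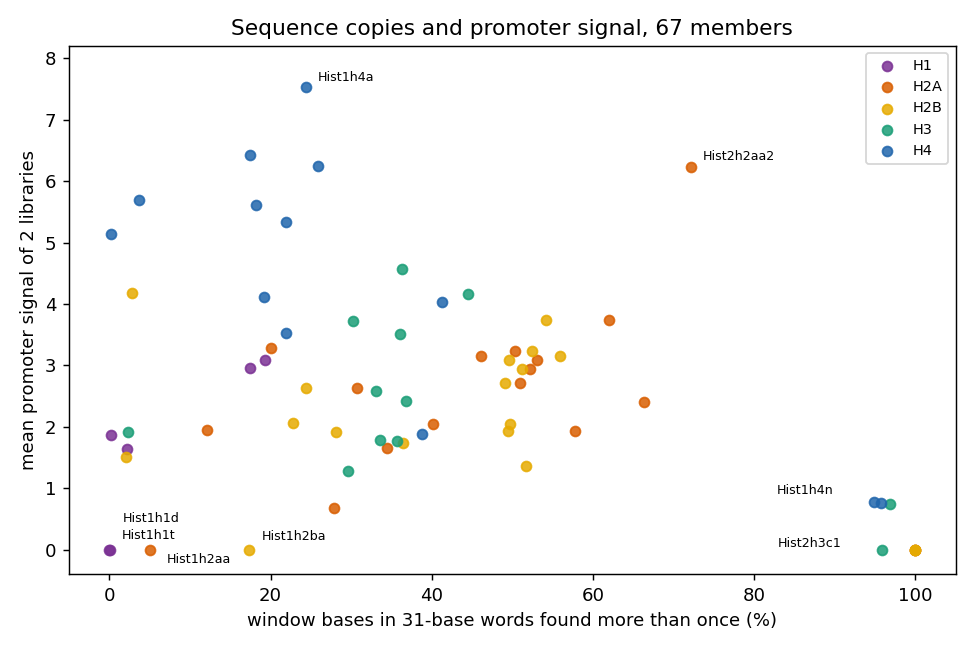
Mean promoter signal of both libraries against the share of window bases in 31-base words found more than once, 1 point per member, coloured by class. The 8 members over 90% lie below a signal of 1. The members on the left without a peak at the annotated start are Hist1h1d, Hist1h1t, Hist1h2aa and Hist1h2ba, and Hist1h1d has a peak around its start codon.

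The members exceeded all genes most around the start. Averaged over the 100 bases around the principal start, 85.03% of members in library 1 and 85.1% in library 2 had a listed base, against 54.2% and 56.6% of all genes. From 250 to 500 bases downstream, within or beyond these short genes, the values were 34.0% and 46.8% for members and 37.2% and 44.0% for all genes. The classes differed in this. H4 genes reached 100% at the start in both libraries, and from 250 to 500 bases downstream they stood at 51.9% and 64.4%, above their 27.4% and 32.2% beyond 250 bases upstream. H1 genes stood at 66.7% and 65.7% that far downstream and at 4.13% and 22.5% that far upstream. H2A genes went the other way, with 55.02% and 62.9% upstream and 21.9% and 34.5% downstream. H2B genes did so too, with 57.4% and 58% upstream, where the partner gene often lies, and 30.4% and 44.0% downstream. In the window as a whole the median member had 60.04% and 69.9% of bases listed. With 1 start per gene, all genes had medians of 41.6% and 54.1%, and among genes with a listed base the members' medians of 61.3% and 72.5% lay below 75.1% and 81.7% for all genes.

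**Figure D3:**
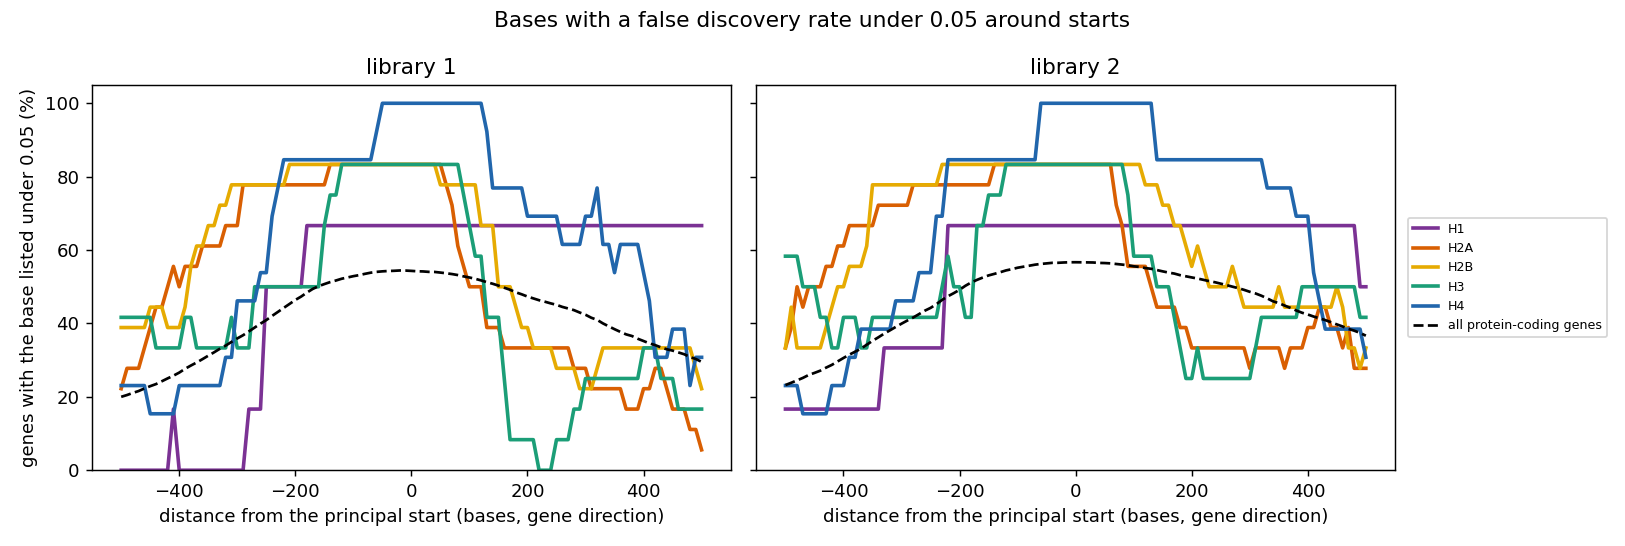
Share of genes, in percent, whose base is listed under a false discovery rate of 0.05, by distance from the principal start in the direction of the gene, for each histone class and all protein-coding genes, in library 1 (left) and library 2 (right). H4 genes reach 100% at the start, and beyond it the H2A and H3 curves drop below that of all genes before the far end of the window.

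At the other end of the genes, the stem-loop that SLBP binds in the message was searched by the letters that its forms have in common, on the strand of the gene and within 150 bases after the coding end, a description of the DNA only. It was found at 63 of 67 members and at 66 of 21938 protein-coding genes (0.301%) in all. The commonest form, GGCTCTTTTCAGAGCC, ended 41 members of the H1, H2A, H2B and H3 classes, and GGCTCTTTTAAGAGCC ended 9. The form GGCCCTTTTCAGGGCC ended 8 members, all of them H4 genes. No match was found at Hist1h2an, Hist1h3g, Hist1h4a and Hist2h2be. Of the 63 stem-loops, 45 had no listed base in library 1 and 32 had none in library 2. The same position was not measured over all genes, so nothing particular to the members is read from these counts.

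The libraries differed in how they ranked the classes. Over the 58 open members the median log2 ratio of library 2 to library 1 was -0.22, and 19 were higher in library 2. Over the 13956 protein-coding genes with a peak in both it was 0.11, and 68.1% were higher in library 2. By class the median was -0.31 for H2A (4 of 15 higher), -0.36 for H2B (2 of 15), -0.11 for H3 (3 of 11), -0.01 for H4 (6 of 13) and 0.48 for H1 (4 of 4). In each of 9 open pairs an H2A and an H2B gene share 1 peak, so that 1 ratio is counted in both classes. The H2B gene Hist1h2bh and the H3 gene Hist1h3f also share 1 peak, with a ratio of -0.58 counted in both classes. With each peak counted once, the median over 48 peaks was -0.07, and 18 were higher in library 2. It was -0.40 for the 9 peaks shared by H2A and H2B (1 higher), 0.01 for the 6 peaks of H2A genes alone (3 higher) and -0.34 for the 5 of H2B genes alone (1 higher). Over all genes the ratio moved with the level. The median was 0.25 with a mean signal under 2, 0.15 from 2 to under 5 and -0.01 from 5 up, the last beside -0.01 for H4. Median ratios over all genes in 4 ranges of GC content lay between 0.10 and 0.13. The part of level and of base composition in the class values was not tested. The authors' scaling of the libraries is unknown, and with 1 library on each side the ratios have no replicate check.

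**Figure D4:**
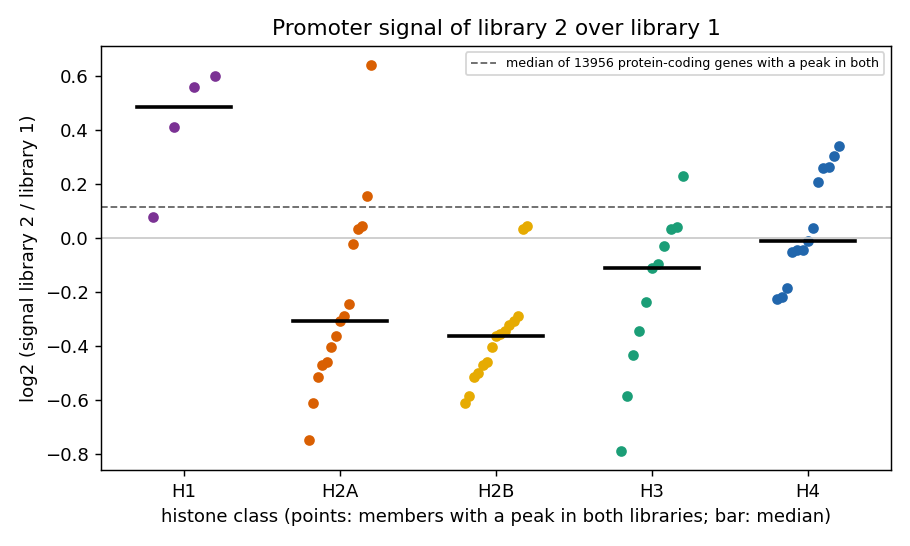
Log2 ratio of promoter signal in library 2 to library 1 for the 58 members with a peak in both, by class, 1 point per member, so that a peak shared by a pair appears as a point for each of its genes; bars are class medians and the dashed line is the median of 13956 protein-coding genes. The H2A and H2B medians, -0.31 and -0.36, lie below the line and the H1 median, 0.48, above it.

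The listed genes that work with the clustered histones were open throughout, where 63.6% of all genes had a peak in both libraries. All 15 genes for histone gene transcription and 3′ processing had a peak in both libraries, with a median of 5.45 and 4.88. Npat, which nucleates the histone locus body, was the strongest by the mean of the libraries, with 8.76 and 9.35, although Casp8ap2 stood above it in library 1 at 9.22. Hinfp, the factor of the H4 element, gave 7.04 and 7.43, and Slbp, the stem-loop binding protein, 5.45 and 4.59. Gon4l was the lowest, with 0.497 and 0.623. All 10 replication-independent histone genes were open, with a median of 5.26 and 5.03. Among them H2afv, an H2A.Z gene, was highest by the mean, with 7.81 and 7.18, and H1fx lowest, with 1.55 and 2.12. In single libraries H2afz, the other H2A.Z gene, was higher in library 2 at 7.39, and H2afy2 was lower in library 1 at 1.45. H3f3b, an H3.3 gene, gave 6.17 and 4.72. The class medians of H2A, H2B, H3 and H1 above lay below these list medians, and that of H4 was close to them. The comparison of medians has no test.

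The listed promoters of the cell cycle machinery were accessible as well. Over all genes 63.6% had a peak in both libraries, and among these the medians were 3.13 and 3.47. All 15 DNA replication genes (median 3.88 and 4.08), all 10 cell cycle drivers (median 4.13 and 4.29) and all 7 histone chaperone genes (median 5.63 and 6.20) had peaks in both libraries. By the mean of the libraries, their extremes were Mcm4, a subunit of the replicative helicase, with 8.97 and 8.04, and Tyms, thymidylate synthase, with 1.25 and 1.88; Ccne1, cyclin E1, with 7.92 and 8.59, and E2f2 with 1.14 and 0.851; and the chaperones Daxx with 8.23 and 8.15 and Nasp with 3.08 and 2.60. In library 1 alone E2f3 stood above Ccne1, at 8.94. All 6 markers of cycling cells were open (median 3.94 and 3.84), among them Mki67 with 1.51 and 2.12. Mki67 and Top2a are in this list and in that of the cell cycle drivers. Germline histone genes outside the clusters formed the opposite case. None of 8 had a peak in both libraries, where 63.6% of all genes did, and the only value above 0 was 0.197 for H2afb2 in library 2. Hist1h1t, Hist1h2aa and Hist1h2ba, the germline genes within the clusters, had none either. Copied bases were not measured for the 8 genes outside the clusters, so whether reads were lost there was not tested.

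**Figure D5:**
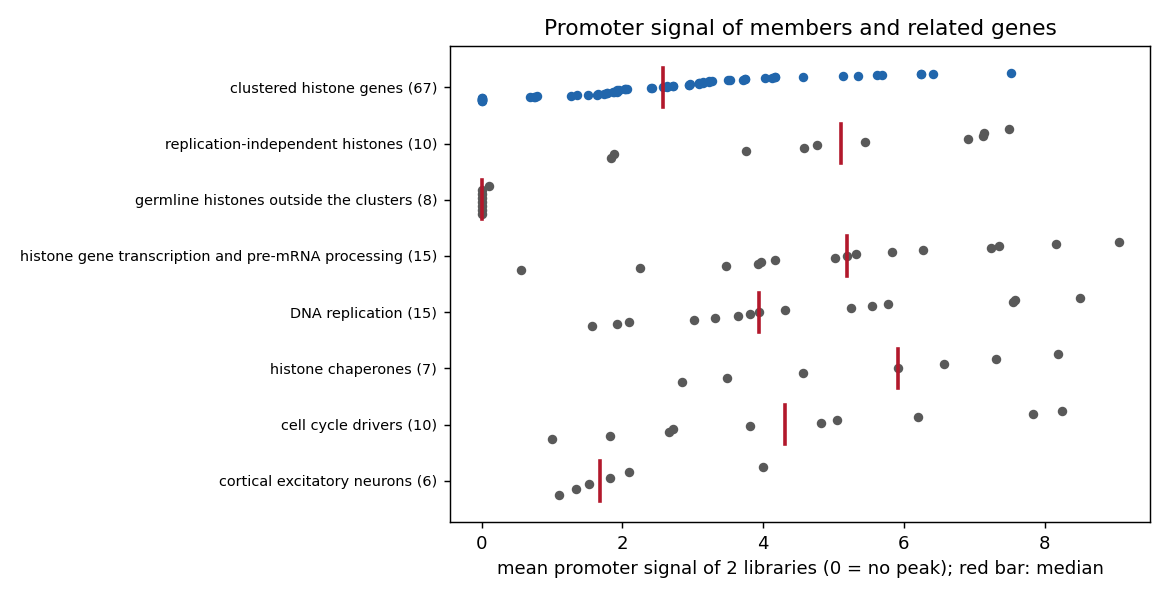
Mean promoter signal of both libraries for the members and 7 lists of other genes, 1 point per gene, with the number of genes in brackets and the list median as a red bar; 0 means no peak in either library. The germline histones lie at or near 0, and the variant and processing genes reach further right than most members.

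In base composition, the members' promoters had a median GC content of 45.7%, against 55.7% over all genes, and a median observed to expected CpG ratio of 0.75, against 0.55. The TATA box TATAAA stood in 37 of 67 member promoters (55.2%), against 13.2% of all promoters. The CCAAT box stood in 56 of 67 (83.6%), against 38.1%. For Hist1h1d and Hist1h2be these values describe the annotated start, which lies over 1000 bases before the start codon.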

How the data were processed

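DNase-seq libraries were described one by one and as mean ± SD over both (n = 2), with no test, since there is 1 group. Peaks, footprints and cut rates were deposited per library on mm10, per the labels; no source used here names the aligner, caller, read length, thresholds or treatment of CAST alleles. The authors deposited a signal for each peak, with no stated normalization. The deposited footprint q-value is 0.01 in every line, and the cut rate table deposited by the authors lists q-values (false discovery rates) under 0.05 only. A window met a peak by at least 1 base. Letters and coordinates were read from the mm10 genome with GENCODE M21; no protein table was used, so proteins were translated and compared without printing them. Members and lists were chosen with earlier results of these data known. Each class is named by its 2 highest and 2 lowest members, with the smaller clusters, testis genes, list extremes and neighbours sharing a peak; other members named were chosen after their values were seen. Window, copy and motif functions were tested on simulated data. Alternatives were other windows, peak lists, overlaps and thresholds. Python 3.11.15 with numpy 2.4.6, pandas 2.3.3 and matplotlib 3.10.9 was used.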

Additional observations from a re-analysis of the deposited data

How the results depend on the processing

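Of the member counts with a promoter peak or footprint, all stayed within 1.5 times the main value under every alternative run. With a main count of 58 of 67, no rise could have passed this limit. Over all 67 members the counts ran from 57 to 65. The counts of 48 of 54 windows and 55 of 59 members have other totals. The count with a promoter peak was 58 without either library. The median member signal was 2.42 without library 1 and 2.55 without library 2, and rose to 3.06 with windows of 2000 bases, which reach neighbouring genes. The median share of listed bases was 69.9% and 60.04% without library 1 and without library 2. It was 86.6% with windows of 250 bases, 24.2% with 2000 bases, 52.2% under a false discovery rate of 0.001 and 78.6% over single-copy bases of 63 members. Windows around start codons, added after seeing the data, left 9299 of all genes with a peak in both libraries, against 13956 with all annotated starts and 12877 with 1 start per gene; the cause was not tested. No paired analysis was possible because there was 1 group and no second condition. Depth is unknown, so whether weak peaks were missed was not tested.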
